A study of Homo sapiens with 11 samples.

Results

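The genes described here are those of glycolysis and of the hypoxia response, a list of 38 genes defined by gene function, with no measured value in its rule. The array held 33 of them, among 14941 named genes. HK2, LDHB, SLC16A3, CA9 and ANKRD37 had no probe of their own and were not analysed here. The 33 genes were 15 of 17 glycolytic enzymes, 6 of 7 regulators and transporters of glycolysis, 9 of 11 other hypoxia targets, and the 3 HIF subunits. They were measured in RT4 cells, an established human line from a bladder papilloma, which is a single line and stands for no other papilloma. The cells grew either on Matrigel, called here cancer-remodeled extracellular matrix (crECM), or on plastic. There were 9 crECM arrays, 1 each at 12 h and at days 1, 2, 3, 4, 6, 7, 8 and 9 after transfer from plastic, and 2 plastic arrays. All cells were kept in McCoys medium with fetal calf serum, on crECM over a gel in a culture insert, and no culture was labeled as hypoxic. The question was how expression on crECM differed from that on plastic, and whether the enzymes and the other hypoxia targets moved alike.

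Glycolysis splits glucose into pyruvate in a chain of enzymes, and lactate dehydrogenase then turns pyruvate into lactate. When oxygen is short, the prolyl hydroxylases that mark the alpha subunits of hypoxia-inducible factor (HIF) for degradation slow down, and HIF pairs with ARNT and switches on genes for glycolysis, vessel growth and mitochondrial clearance. BNIP3, the marker of this group, is such a target and acts in mitochondrial clearance and cell death.

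Expression is given as noise SDs, the deposited values taken out of log10. They began as each spot's distance from its array's zero point, counted in standard deviations (SD) of the noise. The regression between arrays then changed them, so they no longer measure that distance. BNIP3 on plastic, for example, had 5.16 and 5.66 noise SDs, with raw intensities of 24.4 and 21.9. The zero points of these arrays, as estimated here, were 25.7 and 28.2. A value over 3 on the adjusted scale was taken as expressed, which on plastic does not ensure a raw signal above the zero point. The raw intensity had a median of 224 to 482 on the crECM arrays and of 162 and 140.45 on the plastic arrays. On the raw scale 76.4% to 85.4% of the probes lay above 3 SD on crECM, against 54.1% and 44.8% on plastic, while in the deposited values the shares were 83.9% to 86.6% on crECM and 86.4% and 85.2% on plastic. Regressed on the raw log10 values, the deposited ones had a slope of 1.01 to 1.46 on crECM and 0.695 and 0.673 on plastic, a slope that covers both the subtraction of the zero point and the adjustment of the arrays to each other. All raw plastic values had at most 1 decimal, against under 1% of the raw crECM values, so the way the arrays were quantified and the substrate cannot be told apart. Of 17 urothelial and epithelial markers on the array, 13 lay above 5 SD on all 11 arrays, as did 8 of 13 markers of unrelated cell types. Those that did not were KRT13, KRT20, UPK1B and UPK3A of the first list and ALB, COL1A2, INS, PECAM1 and VWF of the second. The summed level of the unrelated markers was 285 to 339 on crECM and 186 to 189 on plastic, and its part in the results was not tested. In bulk RNA, a change in the share of cells and a change in RNA per cell cannot be told apart. The 9 crECM arrays are time points, and nothing in the labels says that the 2 plastic arrays came from separate cultures, so p-values measure the spread between these arrays only.

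Of the 33 genes, 32 were tested, and 28 of these were never under 3 SD. On crECM 7 were higher and 7 were lower at an adjusted p under 0.05 (limma, Benjamini-Hochberg adjustment over 21480 probes), and 18 did not pass. Over all probes tested, 22.8% were higher and 22.4% were lower, 45.2% in all, so the members were called about as often as the array as a whole. All crECM arrays lay above both plastic arrays for 5 members and below them for 9, against 20.8% and 24.4% of all probes. The higher genes were GPI, PDK3, SLC2A3, EGLN1, EGLN3, P4HA2 and EPAS1, and the lower genes were HK1, LDHA, PFKFB3, BNIP3L and NDRG1, and PDK1 and BNIP3. PDK1 and BNIP3 were under 3 SD on all 9 crECM arrays and entered the test only through the 2 plastic arrays, which fixed their direction. Of all probes that did so, 1295 of 1297 were called lower, and they made up 26.9% of all lower calls. The lower calls of PDK1 and BNIP3, and their place among the 9 members below plastic, are therefore given as a description, which leaves 5 members lower with a value measured in both groups. The calls depended on how the arrays were scaled. Of these 14 genes, 12 could be tested under all 4 other scalings. Of the 12, 6 kept their direction under all 4 (GPI, LDHA, SLC2A3, EGLN3, NDRG1 and P4HA2), while GPI alone kept its call under all 4. On rebuilt values without the regression, however, both plastic arrays of GPI, EGLN3 and P4HA2 lay under 3 SD and were set to it. The floor thus fixed their direction as higher on that scaling, which is no check on it. Centring started from the same floored values. The map of the log2 differences by array shows every measured member.

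**Figure D1:**
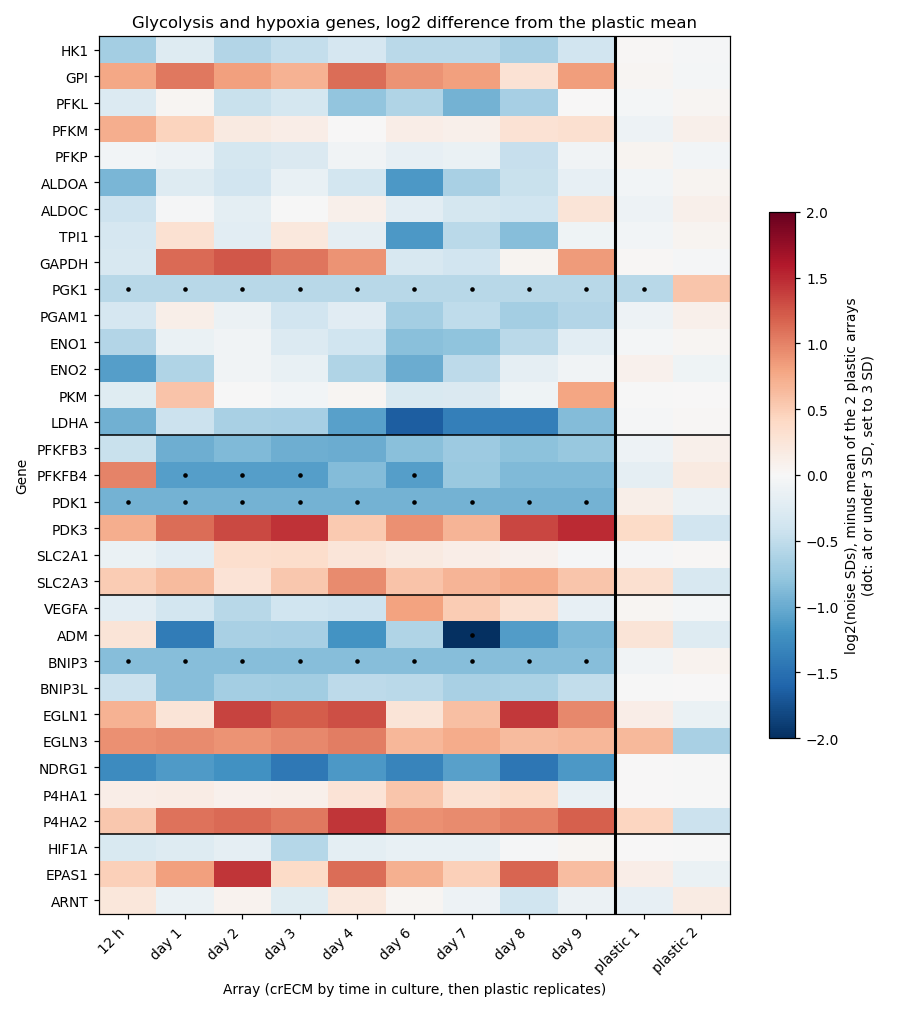
Each row is a gene and each column an array, with the crECM arrays by time in culture on the left and the 2 plastic arrays on the right of the thick line. Color gives the log2 of the noise SDs minus the mean of the plastic arrays, with values under 3 SD set to 3 SD and marked by a dot. Thin lines separate glycolytic enzymes, regulators and transporters, other hypoxia targets and HIF subunits. NDRG1 is low on all 9 crECM arrays, GPI and P4HA2 are high on all 9, and BNIP3 and PDK1 are under 3 SD on all 9.

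Among the glycolytic enzymes, 1 of 14 tested was higher on crECM, 2 were lower and 11 did not pass. Their median log2 change was -0.35, against 0.06 over all probes, and 10 of the 14 lay below 0. This median was not stable: it was 0.09 when the noise SDs were rebuilt from the raw intensities with a regression between arrays, 0.39 without the regression, -1.32 when those values were centred on each array's median, and -0.33 after quantile normalization. The enzymes are given here in the order of the pathway.

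HK1, a hexokinase that phosphorylates glucose, had 32.7 at the lowest, 36.1 at the median and 44.0 noise SDs at the highest on crECM, against 53.2 and 51.7 on plastic. No crECM array reached the plastic arrays, and HK1 was lower on crECM (log2 change -0.50, standard error 0.11, adjusted p = 0.0029 by limma), although the change was 0.44 without the regression. The raw intensities of HK1 overlapped, at 306 to 706.5 on crECM and 581 and 512 on plastic. GPI, which turns glucose phosphate into fructose phosphate, had 21.1 at the lowest, 30.7 at the median and 37.4 noise SDs at the highest on crECM, against 17.8 and 16.8 on plastic. All crECM arrays lay above both plastic arrays, also in raw intensity, and GPI was 1.76-fold higher (log2 change 0.81, standard error 0.17, adjusted p = 0.0025 by limma).

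The phosphofructokinases, which commit sugar to glycolysis, did not pass the test, and for each the groups overlapped. PFKL, the liver type, averaged 24.4 noise SDs on crECM and 33.2 on plastic as geometric means. PFKM, the muscle type, averaged 29.2 on crECM and 24.4 on plastic, and PFKP, the platelet type, 37.9 on crECM and 43.2 on plastic. PFKM kept a positive log2 change under all 4 other scalings (0.18 to 1.89), whereas PFKL and PFKP took both signs.

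The lower part of the pathway showed small differences with no call. The aldolases ALDOA and ALDOC, which split the sugar phosphate, had log2 changes of -0.50 and -0.14. TPI1, which interconverts the triose phosphates, had -0.32, PGAM1, a phosphoglycerate mutase, -0.38, and the enolases ENO1 and ENO2 -0.43 and -0.48. Of these, ALDOA and ENO1 lay below both plastic arrays on all 9 crECM arrays, with adjusted p = 0.11 and 0.10 by limma. The rebuilt values with regression turned the sign of ALDOA, TPI1, PGAM1 and ENO1, and those without regression turned ALDOC, TPI1, PGAM1 and ENO2. PKM, the pyruvate kinase that makes pyruvate, had log10 values of 2.13 at the lowest, 2.21 at the median and 2.46 at the highest on crECM, against 2.22 and 2.23 on plastic (log2 change 0.04), and this small difference was negative under 3 of the other scalings. PGK1, a phosphoglycerate kinase, was under 3 SD on all 9 crECM arrays (1.5 to 2.68 noise SDs) and at 2.39 and 6.51 on plastic, and was not tested. PGK1 was also dim in raw intensity, at 43.1 to 113 on crECM and 10.6 and 26.5 on plastic.

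GAPDH and LDHA were each printed in 17 spots, which shows how far a difference between arrays exceeded the scatter of spots within an array. GAPDH, the dehydrogenase of the middle of the pathway, had 14 spots over 100 SD on both plastic arrays, and LDHA, which turns pyruvate into lactate, had 9. These bright spots were chosen after the values were seen. Spots of an array share 1 RNA sample and are not replicates of a condition. The coefficient of variation between the bright spots of an array was 4.78% to 16.4% for GAPDH and 6.71% to 13.5% for LDHA.

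The median GAPDH spot had 294 noise SDs at 12 h, 668, 728, 603 and 656 on days 1, 2, 3 and 4, 312, 214 and 324 on days 6, 7 and 8 and 504 on day 9 on crECM, against 382 and 383 on plastic. The crECM arrays thus lay on both sides of the plastic arrays. The log2 changes of the 14 spots were -0.14 to 0.47 and none of these was called (GAPDH at its brightest spot 0.47, standard error 0.95, adjusted p = 0.71 by limma, and 0 spots called by the other settings except quantile normalization, with 2 lower, and centring on the array median, with 14 lower). The direction of GAPDH depended on the scaling, with 0 of 14 spots lower on rebuilt values with regression and 14 of 14 lower without it. In raw intensity the median spot had 2580 to 6360 on crECM, against 9640 and 9430 on plastic. The 3 GAPDH spots that were not bright disagreed with these and with each other. The first had 26.1 to 79.6 noise SDs on crECM, against 14.8 and 7.63 on plastic, and was called higher (log2 change 2.19, adjusted p = 0.0013 by limma). The second was under 3 SD on all crECM arrays with at least 8.0 noise SDs on plastic and a call that rests on the floor, and the third was under 3 SD on all crECM arrays and on 1 plastic array and was not tested.

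The median LDHA spot had 69.3 noise SDs at 12 h, 88.0, 78.9, 78.2 and 59.2 on days 1, 2, 3 and 4, 41.0, 47.7 and 51.8 on days 6, 7 and 8 and 70.7 on day 9 on crECM, against 119 and 137 on plastic. All 9 bright spots were below both plastic arrays on every crECM array and were called lower, with log2 changes of -1.13 to -0.81. At its brightest spot LDHA was 2.01-fold lower (74.0 noise SDs on crECM and 149 on plastic as geometric means, log2 change -1.01, standard error 0.27, adjusted p = 0.010 by limma). All 9 spots also had a negative change under each of the other scalings (-0.36 to -0.13 with the rebuilt values and regression, with 0 called). Without plastic replicate 1, 2 of the 9 were called, and without plastic replicate 2 none was. Of the remaining LDHA spots, 8 were dark, under 3 SD on most arrays, with raw intensities of -4.8 to 143. Of these 8, 6 were under 3 SD on all crECM arrays with 4.62 to 9.01 noise SDs on plastic, and these 6 were called lower in the same way as 1295 of 1297 such probes.

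**Figure D2:**
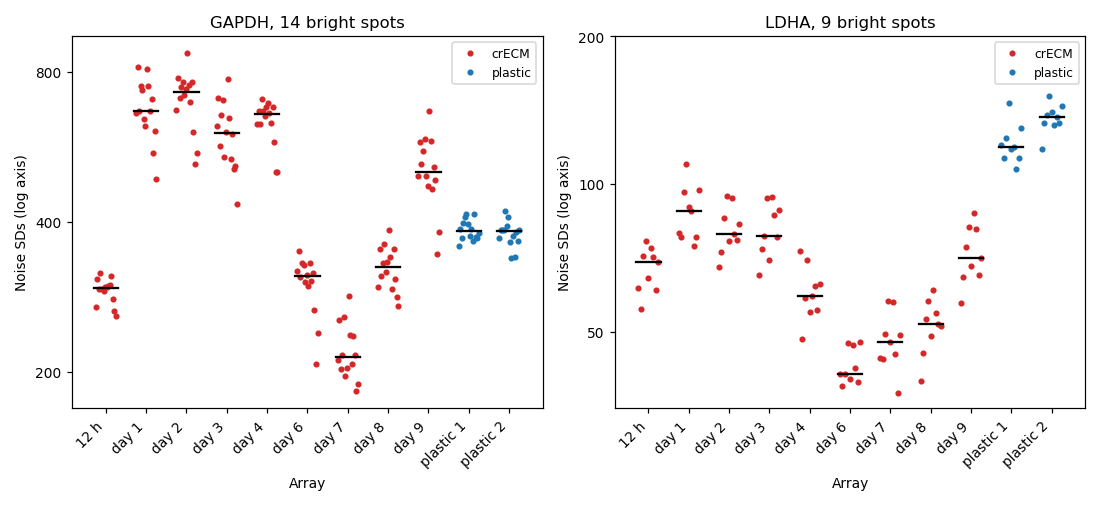
Noise SDs on a log axis of the 14 bright GAPDH spots (left) and the 9 bright LDHA spots (right), with the 9 crECM arrays in red by time in culture and the 2 plastic arrays in blue. Each point is a spot and the black line the median of the spots of an array. LDHA lies between 37.5 and 110 on crECM, against 107 to 151 on plastic, and GAPDH on crECM lies on both sides of plastic.

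LDHA and GPI, the enzymes with the largest change in each direction, are shown with the sequence around their start to compare the letters that HIF is known to bind. Windows of 300 bases, 250 before and 50 after the transcription start, were taken from RefSeq (GRCh38.p14), and 29 of the 33 members matched, with 51 windows. BNIP3L, NDRG1, SLC2A3 and VEGFA were not matched. The motifs searched on both strands were ACGTG and GCGTG, the core of the hypoxia response element. ACGTG on both strands at once is the palindrome CACGTG, the E-box that MYC and USF proteins also bind, so these matches overlap. LDHA had 2 windows, and the one with ACGTG is shown, chr11:18394313-18394612 on the plus strand, and the GPI window is chr19:34364742-34365041 on the plus strand. Capitals mark the motifs on either strand.
LDHA: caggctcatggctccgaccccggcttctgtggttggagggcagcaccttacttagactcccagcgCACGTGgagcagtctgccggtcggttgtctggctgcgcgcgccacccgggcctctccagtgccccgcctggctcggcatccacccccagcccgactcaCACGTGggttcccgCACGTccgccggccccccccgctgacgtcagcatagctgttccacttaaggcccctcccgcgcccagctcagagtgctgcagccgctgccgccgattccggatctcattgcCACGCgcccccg
GPI: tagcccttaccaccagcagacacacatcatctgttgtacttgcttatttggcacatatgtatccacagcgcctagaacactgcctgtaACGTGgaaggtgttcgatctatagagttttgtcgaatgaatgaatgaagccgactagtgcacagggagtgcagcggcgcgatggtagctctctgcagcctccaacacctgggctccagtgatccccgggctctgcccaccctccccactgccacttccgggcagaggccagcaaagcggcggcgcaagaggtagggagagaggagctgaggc
The LDHA window shown held ACGTG 5 times, 4 of them in 2 palindromes, and GCGTG 1 time, and the other LDHA window held no ACGTG and 1 GCGTG, while the GPI window held ACGTG 1 time, 162 bases before the start. ACGTG was in 37.3% of the member windows, against 21.4% of the 35116 windows of all promoters, and GCGTG in 37.3%, against 36.5%. By list, ACGTG was in 38.2% of 34 windows of the glycolytic enzymes and in 3 of 6 windows of the other hypoxia targets. Several windows of a gene can overlap in content, and 9 genes had more than 1 window. A match is a description of letters and no sign that HIF was bound in these cells.

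Of the regulators and transporters of glycolysis, 2 of 6 tested were higher on crECM, 2 were lower, 1 of them PDK1 under 3 SD on crECM, and 2 did not pass, with a median log2 change of -0.32. PFKFB3 and PFKFB4 set the level of the sugar phosphate that activates phosphofructokinase, PDK1 and PDK3 are kinases that shut pyruvate out of the mitochondrial cycle, and SLC2A1 and SLC2A3 carry glucose into the cell.

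PFKFB3 had 26.9 at the lowest, 30.1 at the median and 39.5 noise SDs at the highest on crECM, against 50.4 and 57.4 on plastic. No crECM array reached plastic, and PFKFB3 was 1.77-fold lower (log2 change -0.83, standard error 0.13, adjusted p = 0.00036 by limma). It stayed lower with a call under 3 of the other scalings and had a change of 0.15 without the regression. PFKFB4 had 12.8 noise SDs at 12 h and 2.19 to 3.88 on days 1 to 9 on crECM, against 5.72 and 7.30 on plastic, so the 12 h array lay above and the later arrays below plastic. Over all crECM arrays it did not pass (log2 change -0.76, adjusted p = 0.19 by limma), and without the 12 h array its change was -0.97. In that fit 4 crECM arrays were set to the floor of 3 SD, which narrows their spread, so no p is given. The raw intensity of PFKFB4 ran the other way, at 60.2 to 146 on crECM and 27.7 and 31.0 on plastic. Both plastic spots lay near the zero points of 25.7 and 28.2.

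PDK1 was under 3 SD on all 9 crECM arrays and had 6.28 and 5.29 noise SDs on plastic. On the deposited scale PDK1 was at least 1.92-fold lower on crECM against a floor of 3 SD, which is no bound on a change in raw signal. Its raw intensities overlapped, at 26.7 to 52.8 on crECM and 31.1 and 20.0 on plastic, and the plastic spots lay near the zero points of 25.7 and 28.2. Since the filter and the floor fixed its direction, no p is given for PDK1. PDK3 had 6.90 at the lowest, 10.4 at the median and 13.4 noise SDs at the highest on crECM, against 6.21 and 3.69 on plastic. In raw intensity PDK3 had 95.6 to 320 on crECM and 30.7 and 12.5 on plastic. These plastic spots lay near or below the zero points, so the fold of PDK3 is taken over a plastic level close to the background. PDK3 was 2.09-fold higher with no overlap (log2 change 1.06, standard error 0.30, adjusted p = 0.013 by limma), but not without plastic replicate 2 (adjusted p = 0.21), and its change was -0.85 without regression on values centred on the array median.

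Of the glucose transporters, SLC2A3 was higher on crECM and SLC2A1 did not pass. SLC2A3 had 26.5 at the lowest, 32.3 at the median and 42.3 noise SDs at the highest on crECM, against 27.3 and 17.5 on plastic. The groups overlapped at plastic replicate 1, and the call (log2 change 0.61, standard error 0.17, adjusted p = 0.014 by limma) was lost without plastic replicate 2 (0.28, adjusted p = 0.30). SLC2A1 averaged 23.4 noise SDs on crECM and 21.7 on plastic (log2 change 0.11), and its change was above 0 under all 4 other scalings.

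PFKFB3 was called lower under 3 of the other scalings, and the window around its second annotated start, chr10:6202682-6202981 on the plus strand, is shown for the motif it holds, with capitals as above. The first window held 1 GCGTG and no ACGTG.
PFKFB3: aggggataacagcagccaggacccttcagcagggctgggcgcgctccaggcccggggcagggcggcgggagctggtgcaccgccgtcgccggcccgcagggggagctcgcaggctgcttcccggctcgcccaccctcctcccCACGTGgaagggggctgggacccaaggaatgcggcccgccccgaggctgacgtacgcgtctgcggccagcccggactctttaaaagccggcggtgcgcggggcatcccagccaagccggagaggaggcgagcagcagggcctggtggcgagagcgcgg
It held the palindrome CACGTG 1 time, 108 bases before the start, and no GCGTG.

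Of the other hypoxia targets, 3 of 9 tested were higher on crECM, 3 were lower, 1 of them BNIP3 under 3 SD on crECM, and 3 did not pass, with a median log2 change of -0.06. This median was 0.24 on rebuilt values with regression, 1.09 without it, -0.61 without it after centring, and 0.11 after quantile normalization. In the deposited values the median of the other targets lay closer to that of all probes (0.06) than the median of the enzymes (-0.35) did, and the enzymes had the lower median under each of these scalings. The difference between the lists was not tested, since earlier results of these data were known when the gene groups were set.

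Lower on crECM with a measured value in both groups were NDRG1 and BNIP3L. NDRG1, a gene of stress and differentiation that hypoxia induces, had 22.6 at the lowest, 26.7 at the median and 28.9 noise SDs at the highest on crECM, against 61.7 and 61.4 on plastic. The crECM arrays held a narrow band far below plastic, also in raw intensity, and NDRG1 was 2.36-fold lower (log2 change -1.24, standard error 0.10, adjusted p = 2.3e-06 by limma). NDRG1 kept its direction under all 4 other scalings (-2.05 to -0.34) and lost its call only without the regression. BNIP3L, a receptor for the clearance of mitochondria, had 23.0 at the lowest, 26.8 at the median and 30.8 noise SDs at the highest on crECM, against 41.4 and 42.0 on plastic. BNIP3L was 1.53-fold lower with no overlap (log2 change -0.61, standard error 0.10, adjusted p = 0.00063 by limma), while without the regression its change was 0.57. The raw intensities of BNIP3L overlapped, at 290 to 516 on crECM and 407 and 378 on plastic.

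BNIP3 was under 3 SD on all 9 crECM arrays, at up to 2.46 noise SDs, and had 5.16 and 5.66 on plastic. On the deposited scale this is at least 1.80-fold lower on crECM against a floor of 3 SD, which is no bound on a change in raw signal. No p is given, since the filter and the floor fixed the direction. The raw intensities of BNIP3 had the opposite order, at 41.5 to 121 on crECM and 24.4 and 21.9 on plastic, where both spots lay below the zero points of 25.7 and 28.2. On values rebuilt from the raw intensities BNIP3 did not reach the level needed for a test, so the direction of the marker rests on the deposited scaling and, with a change of -0.16, on quantile normalization.

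Higher on crECM were P4HA2, EGLN1 and EGLN3. P4HA2, a subunit of the prolyl hydroxylase that matures collagen, had 17.0 at the lowest, 24.3 at the median and 31.5 noise SDs at the highest on crECM, against 15.8 and 8.70 on plastic. All crECM arrays lay above plastic, and P4HA2 was 2.05-fold higher (log2 change 1.03, standard error 0.23, adjusted p = 0.0038 by limma, and 0.11 without plastic replicate 2). EGLN1 and EGLN3 are prolyl hydroxylases that mark HIF for degradation and are themselves induced by hypoxia. EGLN1 had 9.94 at the lowest, 16.2 at the median and 22.2 noise SDs at the highest on crECM, against 9.15 and 7.55 on plastic. Its raw intensities on plastic were 50.6 and 32.5, near the zero points of 25.7 and 28.2. EGLN1 was 1.86-fold higher (log2 change 0.90, standard error 0.33, adjusted p = 0.047 by limma), but the call was lost without either plastic array (adjusted p = 0.13 and 0.28) and the change was -0.35 without regression after centring. EGLN3 had 18.3 at the lowest, 22.0 at the median and 24.0 noise SDs at the highest on crECM, against 18.5 and 7.47 on plastic. The groups thus overlapped, and the plastic arrays differed from each other more than the crECM arrays did. On plastic replicate 2 the raw intensities of P4HA2 and EGLN3 were 39.6 and 32.0, also near the zero point. EGLN3 was called higher (log2 change 0.83, standard error 0.26, adjusted p = 0.022 by limma), with 0.18 and adjusted p = 0.50 without plastic replicate 2.

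The 3 targets that did not pass were VEGFA, ADM and P4HA1. VEGFA, the growth factor of blood vessels, had 37.0 at the lowest, 46.8 at the median and 94.6 noise SDs at the highest on crECM, against 55.8 and 53.1 on plastic (log2 change -0.06, adjusted p = 0.90 by limma). ADM, a peptide that widens vessels, ranged up to 21.6 noise SDs on crECM, was under 3 SD on day 7, and had 21.5 and 15.2 on plastic (log2 change -0.99, adjusted p = 0.15 by limma). P4HA1, the other collagen hydroxylase subunit, averaged 37.0 noise SDs on crECM and 32.1 on plastic (log2 change 0.20). For all 3 the groups overlapped, and for VEGFA and ADM the change was positive without the regression.

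BNIP3, the target under 3 SD on crECM, and EGLN1, a target called higher, had windows at chr10:131981874-131982173 on the minus strand and chr1:231422238-231422537 on the minus strand, printed 5′ to 3′ along the gene.
BNIP3: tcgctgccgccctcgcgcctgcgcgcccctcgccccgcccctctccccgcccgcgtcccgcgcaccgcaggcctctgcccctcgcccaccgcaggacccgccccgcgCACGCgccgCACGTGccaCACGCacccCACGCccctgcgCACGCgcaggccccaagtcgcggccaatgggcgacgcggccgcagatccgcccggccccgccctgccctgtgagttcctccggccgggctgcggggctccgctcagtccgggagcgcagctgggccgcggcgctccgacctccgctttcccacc
EGLN1: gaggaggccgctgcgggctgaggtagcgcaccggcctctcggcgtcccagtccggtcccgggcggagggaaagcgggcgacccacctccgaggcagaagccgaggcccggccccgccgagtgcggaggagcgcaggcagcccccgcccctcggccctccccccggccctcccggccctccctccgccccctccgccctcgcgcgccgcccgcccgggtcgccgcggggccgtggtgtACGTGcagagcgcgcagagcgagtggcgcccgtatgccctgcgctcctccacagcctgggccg
BNIP3 held ACGTG 2 times, in 1 palindrome 134 bases before the start, and GCGTG 4 times, and EGLN1 held ACGTG 1 time, 13 bases before the start. By gene, ACGTG was in a window of 4 of 5 lower members that matched and of 3 of 6 higher members. It was in a window of 16 of 29 members and of 6790 of 27305 genes in all. The 4 lower members include PDK1 and BNIP3, whose direction the filter and the floor fixed. By window, ACGTG was in 28.6% of 14 windows of the lower members, of which HK1 had 7 with no ACGTG, and in 3 of 6 windows of the higher members. The difference between lower and higher members was not tested.

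Of the HIF subunits, EPAS1 was higher on crECM, and HIF1A and ARNT did not pass. HIF1A, the alpha subunit found in most cells, had 40.9 at the lowest, 53.3 at the median and 62.1 noise SDs at the highest on crECM, against 60.7 and 60.6 on plastic (log2 change -0.20, adjusted p = 0.21 by limma). EPAS1, another alpha subunit, had 14.9 at the lowest, 18.7 at the median and 31.0 noise SDs at the highest on crECM, against 12.5 and 10.5 on plastic. On plastic the raw intensities of EPAS1 were 77.3 and 51.9, less than 3 SD of the noise above the zero points of 25.7 and 28.2. EPAS1 was 1.73-fold higher with no overlap (log2 change 0.79, standard error 0.27, adjusted p = 0.031 by limma). The call was lost without plastic replicate 1 (adjusted p = 0.095) and without plastic replicate 2 (0.23), and its change was -0.03 without regression after centring.

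ARNT, the shared partner of the alpha subunits, had probes that disagreed. The brighter probe had 27.0 at the lowest, 33.2 at the median and 42.0 noise SDs at the highest on crECM, against 31.9 and 40.1 on plastic, with no call (log2 change -0.05). The dimmer ARNT probe had 8.73 to 30.7 noise SDs on crECM, against values near 0 on both plastic arrays (log2 change 2.65 against a floor of 3 SD). It passed the filter only through the crECM arrays, which fixed its direction, so its higher call is a description with no p given. Of all probes under 3 SD on both plastic arrays, 1056 of 1957 were called higher. The raw intensities of this dimmer probe were 153 to 544 on crECM and 3.4 and -26.9 on plastic. Which transcripts the probes detect was not analysed here, so ARNT as a gene has no single direction.

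**Figure D3:**
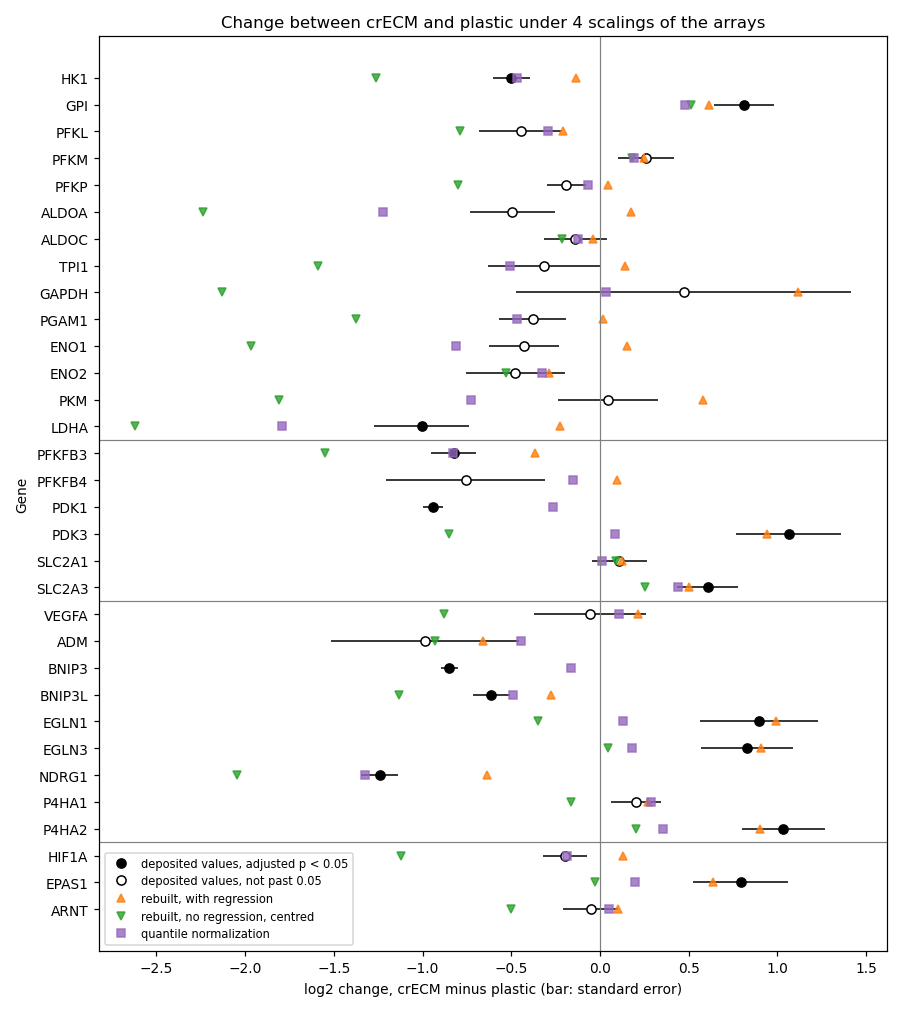
The log2 change of each tested member, crECM minus plastic, with the standard error as a bar for the deposited values (filled circle, adjusted p under 0.05; open circle, not past it). Triangles and squares give the change on 3 other scalings, and the rebuilt values without regression are shown after centring on the array median. LDHA and NDRG1 lie left of 0 and GPI and P4HA2 right of 0 with every symbol, while GAPDH spreads from -2.13 to 1.12.

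Over the days on crECM, the 12 h array was set against days 1 to 9. Of the 32 members 1 was higher at 12 h and 0 were lower (limma, adjusted p under 0.05), against 3.54% and 2.69% of all probes. The higher gene was PFKFB4, with a log2 difference of 1.96, 12.8 noise SDs at 12 h and 2.19 to 3.88 later. Of the later arrays, 4 were under 3 SD and set to it, which narrows their spread. The call of PFKFB4 rests on this narrowed spread and on 1 array at 12 h, so no p is given. In raw intensity PFKFB4 had 142 at 12 h and 60.2 to 146 later, so the raw 12 h value was not the highest. The 12 h array, however, had the lowest raw median of the crECM arrays, 224 against 250 to 482, so raw values are not level between arrays. No member had a slope over log2 of the day at an adjusted p under 0.05 by limma, where 0.00466% of all probes had one, and 2 members, PFKM and PGAM1, had an unadjusted p under 0.05 (0.031 and 0.023), where 8.47% of all probes did.

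After the values were seen, days 6 to 8 stood apart for 4 members, and this is given as a description with no test. VEGFA was above all other crECM arrays on days 6, 7 and 8, at 94.6, 77.0 and 67.8 noise SDs, against 37.0 to 48.4 on the other 6. The second VEGFA probe did the same, at 34.7, 32.8 and 33.3, against 21.6 to 31.3. P4HA1 was 1.24-fold above the other days. It stayed above on rebuilt values with regression and after quantile normalization, but overlapped with the other days without the regression. The enzymes LDHA and TPI1 went the other way, with LDHA at 47.3, 57.7 and 57.7 noise SDs, against 69.8 to 110 on the other days, and TPI1 at 40.5, 61.7 and 49.4, against 70.5 to 111. Of all probes, 1.47% were above and 1.33% below the other crECM arrays on these 3 days, and of 32 members 2 were above and 2 below. For VEGFA both probes stayed above on rebuilt values with regression and after quantile normalization, and the brighter one also without the regression. LDHA was below in 8 of 9 bright spots on each of these scalings except without the regression, where 1 was, while TPI1 overlapped on rebuilt values with regression and after quantile normalization.

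**Figure D4:**
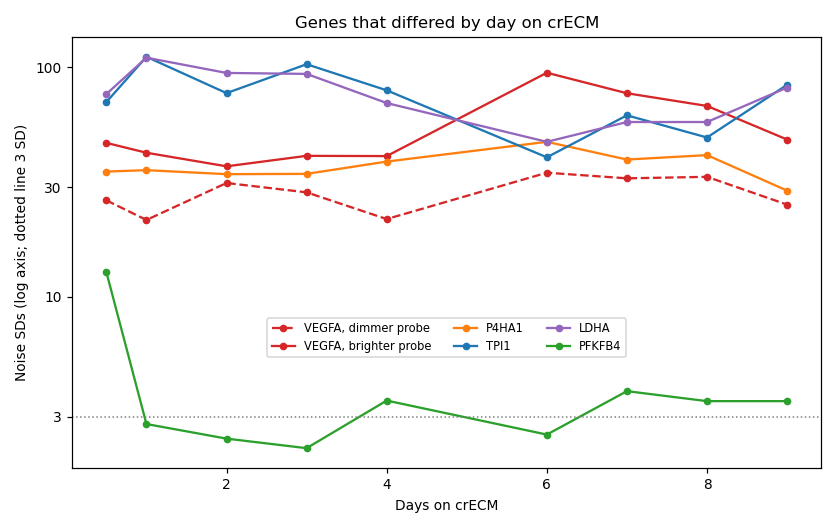
Noise SDs on a log axis against days on crECM for VEGFA (solid line, brighter probe; dashed line, dimmer probe), P4HA1, TPI1, LDHA and PFKFB4, with 1 array at each time. VEGFA peaks on day 6 at 94.6, when TPI1 and LDHA have their lowest values, and PFKFB4 is at 12.8 at 12 h and near the 3 SD line later.

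Wider lists of the same pathways, which hold none of the 38 genes, were counted in the same way, where 22.8% of all probes were higher and 22.4% were lower. Of 40 other genes of glycolysis and pyruvate use, 33 were on the array and 32 were tested, of which 9 were higher on crECM, 4 were lower and 19 did not pass, with a median log2 change of 0.21. Of 59 other genes of hypoxia and the HIF pathway, 54 were on the array and 52 were tested, of which 10 were higher, 16 were lower and 26 did not pass, with a median of -0.02. Of the lower calls, 2 in each list were of genes under 3 SD on all crECM arrays, and of the higher calls, 2 in the first list and 1 in the second were of genes under 3 SD on both plastic arrays. Both medians lay above that of the 14 glycolytic enzymes (-0.35), a difference that was not tested.

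The largest changes among the called genes of the wider glycolysis list were those of PFKFB1 and PDK2, which were higher, PDK2 only through the crECM arrays, and FBP2 and BPGM, which were lower but entered the test only through the plastic arrays. PFKFB1, the liver form of the enzyme family of PFKFB3, had 21.6 at the lowest, 31.3 at the median and 36 noise SDs at the highest on crECM, against 13.6 and 4.54 on plastic (log2 change 1.98, adjusted p = 0.00040 by limma). PDK2, another pyruvate dehydrogenase kinase, was under 3 SD on both plastic arrays and on crECM day 1. The other crECM arrays had 6.56 to 18.5 noise SDs for PDK2 (log2 change 1.88 against the floor). No p is given for PDK2, since the filter and the floor fixed its direction in the deposited values, and its change was -0.71 without regression after centring. FBP2, a fructose bisphosphatase that runs the pathway backward, and BPGM, which makes bisphosphoglycerate, were under 3 SD on all crECM arrays, with 6.47 and 7.21 noise SDs for FBP2 and 3.35 and 9.59 for BPGM on plastic. Like BNIP3 and PDK1, both were near the zero point in raw intensity on plastic (32.3 and 30.5 for FBP2, 14.9 and 45.4 for BPGM).

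In the wider hypoxia list the largest changes were those of RORA and CREBBP, which were higher, and RBX1 and NOS2, which were lower, NOS2 again only through the plastic arrays. RORA, a nuclear receptor, had 19.5 to 47.6 noise SDs on crECM, against 3.90 and a value near 0 on plastic (log2 change 3.14). CREBBP, a coactivator of HIF, had 17.0 to 99.2 noise SDs on crECM with its highest value at 12 h, against 9.47 and 2.86 on plastic (log2 change 2.57). For each gene 1 plastic array was set to the floor. Both genes thus passed the filter only with the crECM arrays, where they were high, so no p is given. Their raw plastic intensities lay near or below the zero points, at 17.6 and -32.3 for RORA and 53.0 and 9.1 for CREBBP. RBX1, a subunit of the ligase that VHL directs to HIF, had 10.3 to 19.7 noise SDs on crECM, against 40.7 and 38.8 on plastic. RBX1 was 2.76-fold lower (log2 change -1.47, adjusted p = 0.00015 by limma), with overlapping raw intensities (122 to 425 on crECM and 398 and 337 on plastic). NOS2, an inducible nitric oxide synthase, was under 3 SD on all crECM arrays and had 8.10 and 8.29 noise SDs on plastic, with overlapping raw intensities (18.1 to 49.1 on crECM and 43.1 and 37.0 on plastic).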

How the data were processed

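Cy3 labeled cDNA of RT4 cells was read on one-color arrays of 22464 spotted long oligos. For every array the deposited files hold the raw intensity of each spot, in scanner units. The authors also deposited log10 values, made by counting noise SDs above the zero point, taking log10 and fitting the arrays to each other with a robust linear regression. The scanner software was not given in the sources used here. Columns were assigned to samples by title, and all 11 were used. The platform annotation gave 1 gene symbol for 17043 probes, several for 172 and none for 5249. By gene identifier 16952 probes matched the gene table of GRCh38.p14. For a gene with several probes, the probe with the highest mean was reported.

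The deposited values were set to no less than 3 SD and turned to log2. Group means were compared with limma 3.58.1 (R 4.3.3), using eBayes with a trend. Probes had to exceed 3 SD on 2 or more arrays, which left 21480, and p-values were adjusted over all of these by Benjamini-Hochberg. Folds of groups held at 3 SD are lower bounds on the deposited scale only, not on a change in raw signal, and their calls are descriptions. Python 3.11.15 with numpy 2.4.6, pandas 2.3.3, scipy 1.17.1 and statsmodels 0.14.6 was used otherwise. For the other scalings, the zero point was the mode of a kernel density with a bandwidth of 12 raw units, and quantile normalization followed normexp with an offset of 50. The fit was tested on simulated data. The number of arrays limits the precision.

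The members and lists were chosen with earlier results of these data known. Named in sentences of values were members called with no overlap, BNIP3, the rate-limiting enzymes, GAPDH, LDHA, the HIF subunits and, for each wider list, the called genes with the largest change, at most 2 each way. The remaining members, days 6 to 8 and the bright spots were described after their values were seen. Alternatives were other scalings, floors and filters, array weights, all probes of a gene, and leaving out single arrays.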

Additional observations from a re-analysis of the deposited data

Results flagged for a closer look

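In a test for a single array far from the others, run on the 9 crECM arrays of each of 30 genes, 2 genes stood out, and chance alone gives about 1.5. The other 3 genes, BNIP3, PDK1 and PGK1, were at the floor on all 9 arrays and could not stand out. PFKFB4 at 12 h had 12.8 noise SDs, against 2.19 to 3.88 on the other crECM arrays. The gap to its nearest neighbor was 0.822 of the whole range, above Dixon's critical value for 9 arrays. This ratio was taken on log2 values, where 4 crECM arrays of PFKFB4 were tied at the floor of 3 SD. The critical value does not strictly hold for such tied values. PFKFB3, of the same enzyme family, was also highest at 12 h, with 39.5 noise SDs, against 26.9 to 32.6, and a gap of 0.502 of the range. In raw intensity the 12 h array was not the highest for either gene (142 for PFKFB4 and 363 for PFKFB3). It also had the lowest raw median of the crECM arrays, 224 against 250 to 482, so raw values do not rank the arrays for these genes.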

How the results depend on the processing

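The scaling of the arrays moved the results most. On values rebuilt with regression 7 members were higher and 3 lower, without the regression 18 and 2 (the median of all probes then shifted by 1.28 on the log2 scale), without it after centring, chosen after seeing the data, 1 and 18, and after quantile normalization 3 and 11, against 7 and 7 in the deposited values. Over all probes the calls were 4901 higher and 4815 lower in the deposited values, 5640 and 2093 rebuilt with regression, 16061 and 53 without it, 1024 and 8106 after centring, and 3652 and 5382 after quantile normalization. The median log2 change of the glycolytic enzymes was 0.092, 0.39, -1.32 and -0.33 on these 4 scalings, and that of the other hypoxia targets 0.24, 1.09, -0.61 and 0.11. The cause of these shifts was not tested.

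On rebuilt values with regression the log2 change turned its sign for 9 members: PFKP (0.044), ALDOA (0.18), TPI1 (0.14), PGAM1 (0.014), ENO1 (0.15), PFKFB4 (0.10), VEGFA (0.21), HIF1A (0.13) and ARNT (0.10). Without the regression it turned for 15: HK1 (0.44), PFKL (0.92), PFKP (0.91), ALDOC (1.49), TPI1 (0.12), GAPDH (-0.43), PGAM1 (0.33), ENO2 (1.18), PKM (-0.10), PFKFB3 (0.15), VEGFA (0.83), ADM (0.78), BNIP3L (0.57), HIF1A (0.59) and ARNT (1.20). After centring these values it turned for GAPDH (-2.13), PKM (-1.81), PDK3 (-0.85), EGLN1 (-0.35), P4HA1 (-0.16) and EPAS1 (-0.031), and for PDK2 of the wider list (-0.71). After quantile normalization it turned for PKM (-0.73), VEGFA (0.11) and ARNT (0.049). ARNT also turned with the mean of its probes (1.30), and leaving out a plastic array gave it -0.22 to 0.11.

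Leaving out a plastic array gave 1 to 5 higher members and 6 lower ones each time, with a median of -0.37 to -0.27 for the enzymes. The calls of LDHA, EGLN1 and EPAS1 were lost without either plastic array and with array weights, that of EGLN1 also with no filter on dim probes, and those of PDK3, SLC2A3, EGLN3 and P4HA2 without plastic replicate 2. A lone plastic array is assumed to vary like the crECM arrays. Other floors, filters and array weights, the mean of all probes, and leaving out the 12 h or the day 7 array gave 5 to 8 higher and 5 to 8 lower. The count higher at 12 h was 0 without the regression, where PFKFB4 was not tested, 1 after centring (PFKM), 2 after quantile normalization (ADM added), 2 with a floor of 1 SD (PDK1 added) and 2 without the day 7 array (PFKFB3 added). No paired analysis was possible because only the plastic arrays carry replicate numbers. Restricted to probes above 3 SD on all 11 arrays, 7 members were higher and 5 lower. Probes near the noise, such as BNIP3, PDK1 and PGK1, have bounds on the deposited scale or no test only.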
